A study of Mus musculus with 7 samples.

Results

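GABA-A receptors are pentameric chloride channels that open when GABA, the main inhibitory transmitter of the adult brain, binds to them. A receptor is put together from subunits of several families, usually alpha and beta subunits with a gamma or a delta subunit, and the choice of subunits sets where the receptor sits and which drugs it answers to. Receptors with gamma subunits gather mostly at synapses, whereas receptors with the delta subunit lie outside synapses and carry a steady, tonic inhibition. The genes described here are Gabra2, Gabra3, Gabra4 and Gabra5 of the alpha family, Gabrb1 and Gabrb2 of the beta family, and Gabrd, which encodes the delta subunit. These 7 genes were found by their symbols in the deposited table, out of 17 subunit genes of the family and 19257 genes in all.

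Tissue of mouse brain tumors at the endpoint of the disease was measured by bulk RNA-Seq in 7 libraries, which the methods describe as biological replicates. In the 3xCR group (3 libraries, replicates 2, 3 and 4, genotype "control" in the labels) tumors had been started by in utero electroporation of Cas9 and guides into cells at the lateral ventricles of the embryo, with Trp53 and Nf1 among the tumor suppressors targeted. In the GPC6 group (4 libraries, replicates 1 to 4) the tumors carried the same guides (the titles read "3xCr; GPC6"), and a piggyBac transposon drove extra GPC6, a glypican anchored in the plasma membrane. Mice were of CD-1 and C57BL/6 backgrounds and of both sexes, the age of each animal at its endpoint is not given in the sources used here, and no brain without tumor was among the libraries. The tissue was picked under a fluorescence microscope by the label of the tumor cells, so each library mixes RNA from the tumor with RNA from neurons, glia and immune cells nearby, and fewer cells of a type cannot be told apart from less RNA per cell.

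The libraries held 7197692 to 18879762 reads on genes, and a count of 3 reads equals 1.64 to 4.64 normalized counts. Values below are normalized counts, that is, reads divided by 1 size factor per library, and are listed by replicate number, which runs over 2, 3 and 4 for 3xCR and over 1, 2, 3 and 4 for GPC6. The RNA of Gpc6 was higher in every GPC6 library (263 to 5084) than in every 3xCR library (126 to 226), although the library labelled GPC6 replicate 2 was the one at 263. Markers of the labelled tissue, brain, were present, as each gene of the pan-neuronal list and of those for astrocytes, oligodendrocyte precursors, oligodendrocytes and microglia had reads in all 7 libraries. The summed level of 14 pan-neuronal genes ran from 8381 to 13712 in the 3xCR and from 9708 to 72910 in the GPC6 libraries, with none of the 14 at 0 in any library, and GPC6 replicates 1 and 3 held the highest sums.

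Most of the genes lie beside other subunit genes in the mouse genome (GRCm38, GENCODE annotation). On chromosome 5, Gabra2 (70957597 to 71095849, minus strand), Gabra4 (71569749 to 71658308, minus strand) and Gabrb1 (71658113 to 72149037, plus strand) follow each other, and Gabrg1 lies 115 kb before Gabra2. Gabra4 and Gabrb1 are arranged head to head and overlap by 196 bases. Since the strand setting of the counting is not stated, reads in this overlap may have been given to either gene. Gabra3 lies on chromosome X (72432681 to 72656848, minus strand) between Gabre and Gabrq, Gabra5 on chromosome 7 (57407672 to 57510059, minus strand) 20.5 kb from Gabrg3, Gabrb2 on chromosome 11 (42419757 to 42629028, plus strand) 98.7 kb from Gabra6, and Gabrd on chromosome 4 (155384980 to 155398112, minus strand), with no other described subunit gene beside it. Gabrd is also the most compact, with a span of 13.1 kb against 490.9 kb for Gabrb1.

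The 250 bases before the start sites are shown for 3 of the 4 members whose start is the same in RefSeq and in GENCODE. The window of the other, Gabra4, runs into an exon of Gabrb1. RefSeq had such windows for 6 of the 7 members (GRCm38.p6). A set of 5 motifs was searched on both strands, namely the CREB element TGACGTCA and its inner part TGACG, the GC box GGGCGG, the TATA box TATAAA and TCAGCACC, a core of the RE1 element. They are held by 1.55%, 17.8%, 32.7%, 12.4% and 1.32% of all 32851 RefSeq windows of this length. Capitals mark the matches, here a GC box alone. The windows are chr5:71095850-71096099 for Gabra2 and chr7:57510060-57510309 for Gabra5 (minus strand), and chr5:71699682-71699931 for Gabrb1 (plus strand, before an inner start of the gene), each written from 5′ to 3′ on the strand of the gene:
Gabra2: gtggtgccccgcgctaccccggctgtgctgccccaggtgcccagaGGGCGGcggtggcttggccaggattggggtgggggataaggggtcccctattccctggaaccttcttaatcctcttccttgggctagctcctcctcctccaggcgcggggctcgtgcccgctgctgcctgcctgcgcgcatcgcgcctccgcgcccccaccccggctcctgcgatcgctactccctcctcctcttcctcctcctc
Gabra5: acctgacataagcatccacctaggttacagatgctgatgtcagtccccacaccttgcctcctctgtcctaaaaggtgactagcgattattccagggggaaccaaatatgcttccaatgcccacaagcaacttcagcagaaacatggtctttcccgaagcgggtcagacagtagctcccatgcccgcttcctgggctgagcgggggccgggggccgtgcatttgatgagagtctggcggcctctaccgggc
Gabrb1: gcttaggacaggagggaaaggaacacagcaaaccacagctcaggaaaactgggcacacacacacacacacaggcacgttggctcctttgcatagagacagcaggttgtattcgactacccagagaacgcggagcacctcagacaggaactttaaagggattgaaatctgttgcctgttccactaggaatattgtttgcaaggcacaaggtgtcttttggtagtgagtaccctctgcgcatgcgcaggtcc

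The window of Gabra2 held 1 GC box and that of Gabra4 (not shown) held 2, while none of the letters searched were found before Gabra5 and Gabrb1. The content of G and C was 70.0% for Gabra2, 61.2% for Gabra4, 56.4% for Gabra5 and 50.8% for Gabrb1, against a median of 52.4% over all windows. Among these windows, the pair with GC boxes had the higher ratio of observed to expected CpG (0.61 and 0.65, against 0.45 for Gabra5, 0.37 for Gabrb1 and a median of 0.37). This did not hold for windows at starts that differ between RefSeq and GENCODE. A further Gabrb1 window, before an outer start, had no GC box, 64.4% of G and C and a ratio of 0.71. The Gabrb2 window with 1 GC box had a ratio of 0.44, and those without one had 0.61 and 0.53. The windows of Gabra3 had neither GC boxes nor CpG. None of these windows held the CREB element.

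Whether tumors with GPC6 differed from 3xCR tumors in the RNA of these receptors was asked gene by gene. All 7 genes had a higher mean in the GPC6 group, by 1.88-fold (Gabra2) to 10.8-fold (Gabrd) in the means of normalized counts, yet the libraries of both groups overlapped in every one of them and none passed the test across all genes. Groups of GPC6 libraries wholly above the 3xCR libraries were seen in 2.8% of the 14782 genes tested and in 0 of the 7, and groups wholly below in 3.52% and 0. A log2 fold change of at least 1 was reached by 5 of the 7, beside 8.15% of the genes tested. The comparison was made with limma on log2(normalized count + 1), two-sided, with Benjamini-Hochberg adjustment over all 14782 genes with a mean of at least 10, and the fold changes in log2 units below are on this scale, where low genes come out with too small a change. Gpc6, raised by design and without overlap of the groups, did not pass either (log2 fold change 2.85 ± 0.98, SE, limma unadjusted p = 0.0197, adjusted p = 0.730). Failing this test therefore does not show that a gene is unchanged.

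The delta subunit showed the widest span between the highest and the lowest library, 319-fold, beside 305-fold for Gabra5. The lowest values of these genes rest on 2 reads and 1 read, so their order is not settled. Gabrd had 59.2, 20.5 and 2.76 normalized counts in the 3xCR libraries against 883, 49.4, 207 and 47.3 in the GPC6 libraries. GPC6 replicates 1 and 3 were above all 3xCR libraries, and GPC6 replicates 2 and 4 were below 3xCR replicate 2. The mean was 27.5 ± 28.9 (SD, n = 3) in 3xCR and 296 ± 398 (SD, n = 4) in GPC6 tumors. Its log2 fold change was 3.10 ± 1.26 (SE, limma unadjusted p = 0.0392, adjusted p = 0.730). The value of 2.76 rests on 2 reads, for which an exact Poisson interval of 95% reaches from 0.33 to 9.98 normalized counts (counting error only). With 1 library left out, the ratio of the means ran from 3.68 (without GPC6 replicate 1) to 25.5 (without 3xCR replicate 2).

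Gabra4 encodes the alpha subunit that most often joins the delta subunit in the thalamus, striatum and dentate gyrus. It had 271, 138 and 31.8 normalized counts in the 3xCR libraries against 1175, 150.2, 378 and 248 in the GPC6 libraries. The same 2 GPC6 libraries were above the 3xCR range, and the other 2 lay between 3xCR replicates 2 and 3. The log2 fold change was 1.75 ± 0.87 (SE, limma adjusted p = 0.730), with means of 147 ± 119.8 (SD, n = 3) and 488 ± 467 (SD, n = 4).

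Gabra5, whose subunit carries tonic inhibition in hippocampal pyramidal cells, was the gene with fewest reads in the 3xCR group. Its values in the 3xCR libraries were 40.6, 18.6 and 1.38, the last of them a single read (95% exact Poisson interval 0.035 to 7.70 normalized counts). The GPC6 libraries had 422, 8.89, 131 and 11.3. GPC6 replicates 2 and 4 were thus below 3xCR replicates 2 and 3. The log2 fold change was 2.03 ± 1.54 (SE, limma adjusted p = 0.738), with means of 20.2 ± 19.6 (SD, n = 3) and 143 ± 194 (SD, n = 4). With 1 library left out it ran from 0.84 (without 3xCR replicate 4) to 2.90 (without 3xCR replicate 2).

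Gabra2 and Gabra3 are the alpha subunits that prevail in the immature forebrain, before other alpha subunits take over at many synapses. Gabra2 had 303, 181 and 122 normalized counts in the 3xCR libraries against 668, 168, 419 and 262 in the GPC6 libraries (means 202 ± 92.5, SD, n = 3, and 379 ± 218, SD, n = 4). Its spread was the smallest of the 7, with 5.49-fold between the highest and the lowest library, and its log2 fold change was 0.82 ± 0.51 (SE, limma adjusted p = 0.730). Gabra3 had 587, 269.8 and 110.5 in the 3xCR libraries against 1241, 499.9, 899 and 381 in the GPC6 libraries (means 322 ± 243, SD, n = 3, and 755 ± 392, SD, n = 4). For Gabra3, which lies on the X chromosome, the log2 fold change was 1.38 ± 0.61 (SE, limma adjusted p = 0.730), and for both genes 2 of the 4 GPC6 libraries, replicates 1 and 3, exceeded all 3xCR libraries.

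The beta subunits complete the binding site for GABA together with the alpha subunits. Gabrb2 had 345, 149.8 and 87.0 normalized counts in the 3xCR libraries against 1631, 305, 486 and 398 in the GPC6 libraries (means 194 ± 135, SD, n = 3, and 705 ± 621, SD, n = 4). Here 3 of the 4 GPC6 libraries were above the 3xCR range and GPC6 replicate 2 was below 3xCR replicate 2. Gabrb2 was the member with the smallest unadjusted p (log2 fold change 1.75 ± 0.66, SE, limma unadjusted p = 0.0296, adjusted p = 0.730). Gabrb1 had 56.5, 67.9 and 22.1 in the 3xCR libraries against 175, 17.8, 94.9 and 88.5 in the GPC6 libraries (means 48.8 ± 23.8, SD, n = 3, and 94.0 ± 64.2, SD, n = 4). It departed from the other members in that its lowest value came from the GPC6 group, replicate 2, and its log2 fold change of 0.70 was the smallest (SE 0.78, limma adjusted p = 0.804).

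**Figure D1:**
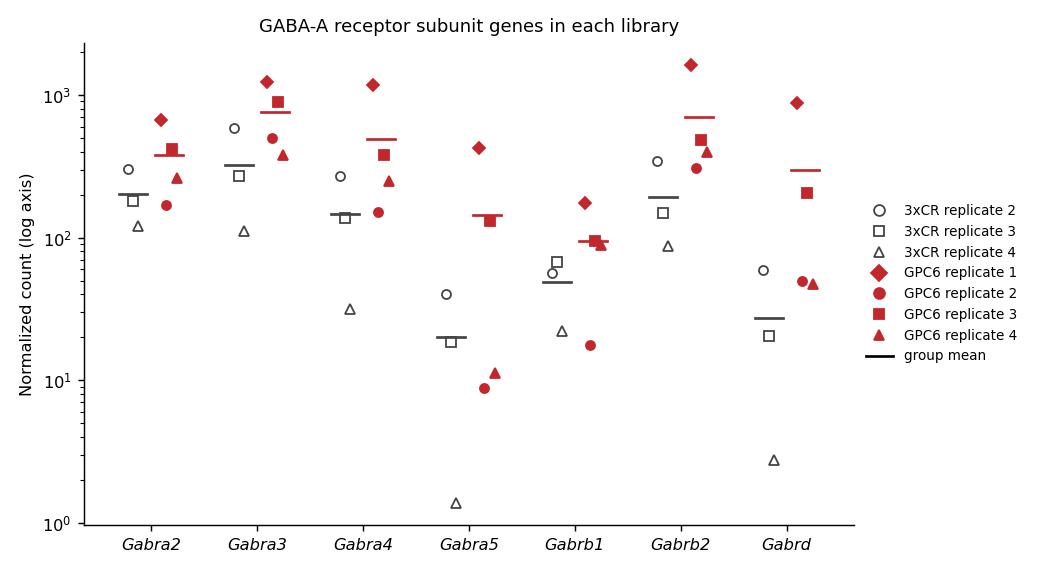
Normalized counts of the 7 subunit genes (log axis), with 1 point per library (open black for 3xCR, filled red for GPC6, shape for the replicate number) and a bar at each group mean. GPC6 replicate 1 is the highest library for all 7 genes, and points of the groups overlap for each of them.

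The libraries thus had nearly the same order for each gene. GPC6 replicate 1 was the highest and GPC6 replicate 3 the next in 7 of 7 members, 3xCR replicate 4 was the lowest in 6 of 7, and GPC6 replicate 2 was below 3xCR replicate 2 in 7 of 7. Over the 7 libraries the log2 values of members correlated with r between 0.65 (Gabra3 with Gabrb1) and 0.98 (Gabra4 with Gabrd), above 0.9 in 14 of 21 pairs. This is a description of 7 points that share libraries and their mixture of cells. The share of all genes, or of all pairs of genes, with the same order was not determined. Scores of the pan-neuronal, interneuron and GABA-B receptor lists, named below, were also highest in GPC6 replicates 1 and 3. The genes whose log2 values followed the mean of the 7 most closely, among 14768 other genes tested, were Atp2b2 (a calcium pump of the plasma membrane), Stxbp5l, Mapk10 (the neuronal JNK kinase), Pgr (the progesterone receptor), Cnksr2, Kcnh3 (a voltage-gated potassium channel), Vstm2l and 2010300C02Rik, with r between 0.993 and 0.997 over the 7 libraries. Of these, Atp2b2 averaged 203 normalized counts in 3xCR and 1735 in GPC6 tumors, and Mapk10 555 and 1399.

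In the test across all genes 0 of 14782 passed an adjusted p under 0.05 (0.0%), and 0 of the 7 members did. An unadjusted p under 0.05 was found for 689 genes (4.66%), 405 of them higher in GPC6 (2.74%), and Gabrb2 and Gabrd were 2 of these. With libraries scaled to an equal upper quartile, 335 of 716 such genes were higher, again with 2 of the 7. With edgeR's quasi-likelihood test on reads, 991 genes had an unadjusted p under 0.05 and 0 an adjusted one (0.0%), 555 of the former being higher in GPC6 (3.75%) with 2 of the 7 among them. The Wald test of DESeq2 gave 1252 higher genes by the unadjusted p (8.53%) with 4 of the 7, and 9 genes by the adjusted p (0.0998%, of which 2 higher, 0.0222%) with none of the 7. However, 3 of the 7 (Gabra5, Gabrb1 and Gabrd) got no adjusted p from DESeq2 and could not be called. Among them was Gabrd, with the smallest DESeq2 unadjusted p of the members (0.0026). By limma voom 214 genes were higher by the unadjusted p (1.45%), 0 passed the adjusted p, and none of the 7 passed either. Library weights estimated by limma's arrayWeights changed the calls most. With them 2718 genes (18.4%) were higher by the unadjusted p, 6 of the 7 among them, and 1962 genes (13.3%) passed the adjusted p, of which 1383 (9.36%) were higher. These included Gabra2, Gabra3, Gabrb2 and Gabrd (limma adjusted p = 0.0393, 0.0291, 0.0290 and 0.0290), with log2 fold changes of 1.04, 1.56, 1.64 and 3.05. Over the 7 members the median log2 fold change was 1.75, beside -0.019 over all genes tested, of which 48.3% were higher on average in GPC6 tumors. The size of the difference rested on single libraries, as this median was 0.84 without 3xCR replicate 4, 1.09 without GPC6 replicate 1, and between 1.58 and 2.28 with any other library left out.

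**Figure D2:**
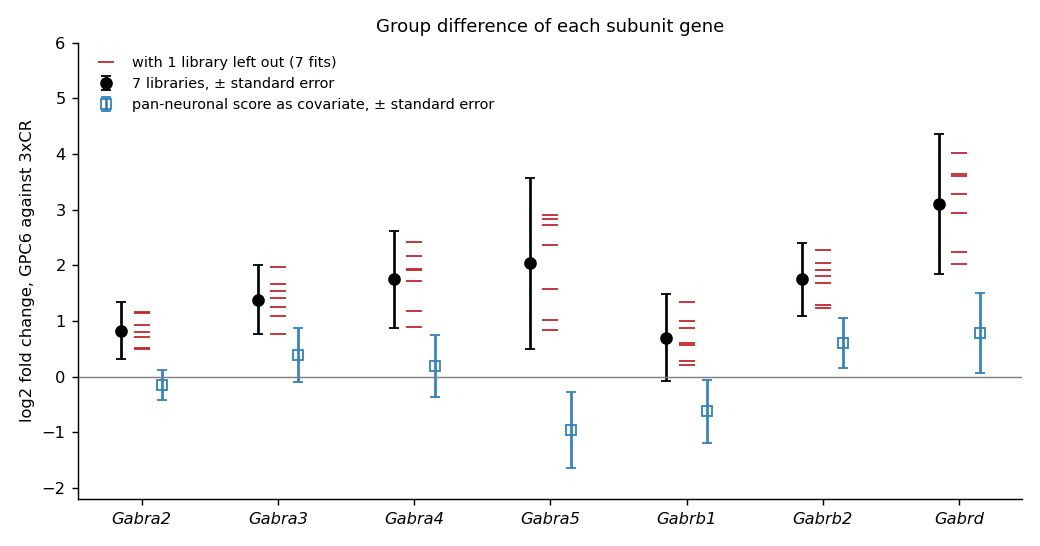
log2 fold change of each subunit gene between GPC6 and 3xCR tumors, from all 7 libraries (black, ± standard error), from the 7 fits that each leave out 1 library (red) and with the pan-neuronal score as a covariate (blue, ± standard error). The black and red values all lie above 0, while the blue values run from -0.96 for Gabra5 to 0.78 for Gabrd.

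The subunit RNA moved with the neuronal RNA of the libraries. A pan-neuronal score, the mean over 14 genes of the log2 value minus the mean of that gene, had values of -0.19, -0.77 and -1.60 for the 3xCR libraries against 2.18, -0.94, 1.38 and -0.067 for the GPC6 libraries. All 14 genes of this list were higher on average in GPC6 tumors, 3 of them with a limma p under 0.05 before adjustment and 0 after it. Gabra2 followed the score most closely, with Pearson's r = 0.98 (two-sided exact permutation test, n = 7, p = 0.000595, adjusted p = 0.00694) and Spearman's rho = 0.96 (exact permutation p = 0.00278, adjusted p = 0.0194). Over the 7 members r lay between 0.86 and 0.98 and rho between 0.82 and 0.96, with adjusted p of 0.00694 to 0.0344 for r and of 0.0194 to 0.0503 for rho (exact permutation tests, Benjamini-Hochberg over 28 relations of 7 genes with 4 lists). Without GPC6 replicates 1 and 3, the libraries farthest from the median score, r was 0.78 to 0.97 over 5 libraries. The permutations ran over all 7 libraries regardless of group, here and for the lists below. Their p-values thus do not separate a relation within groups from a difference between groups. Each group holds too few libraries for a value of its own. How many of the other genes tested follow such list scores as closely was not determined. These relations are therefore not shown to be particular to the subunit genes.

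The steepness of this relation differed among members. Per unit of the score, which is 1 log2 unit on average over the list, the log2 value went up by 0.61 (standard error 0.055) for Gabra2, 0.74 (0.20) for Gabrb1, 0.76 (0.18) for Gabra3, 0.91 (0.18) for Gabrb2 and 1.09 (0.20) for Gabra4. For Gabrd it was 1.74 (0.27) and for Gabra5 1.78 (0.25). The members with the fewest reads in the 3xCR group were thus the steepest. From 3xCR replicate 4 to GPC6 replicate 1 the log2 value differed by 7.88 for Gabrd and by 2.45 for Gabra2.

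**Figure D3:**
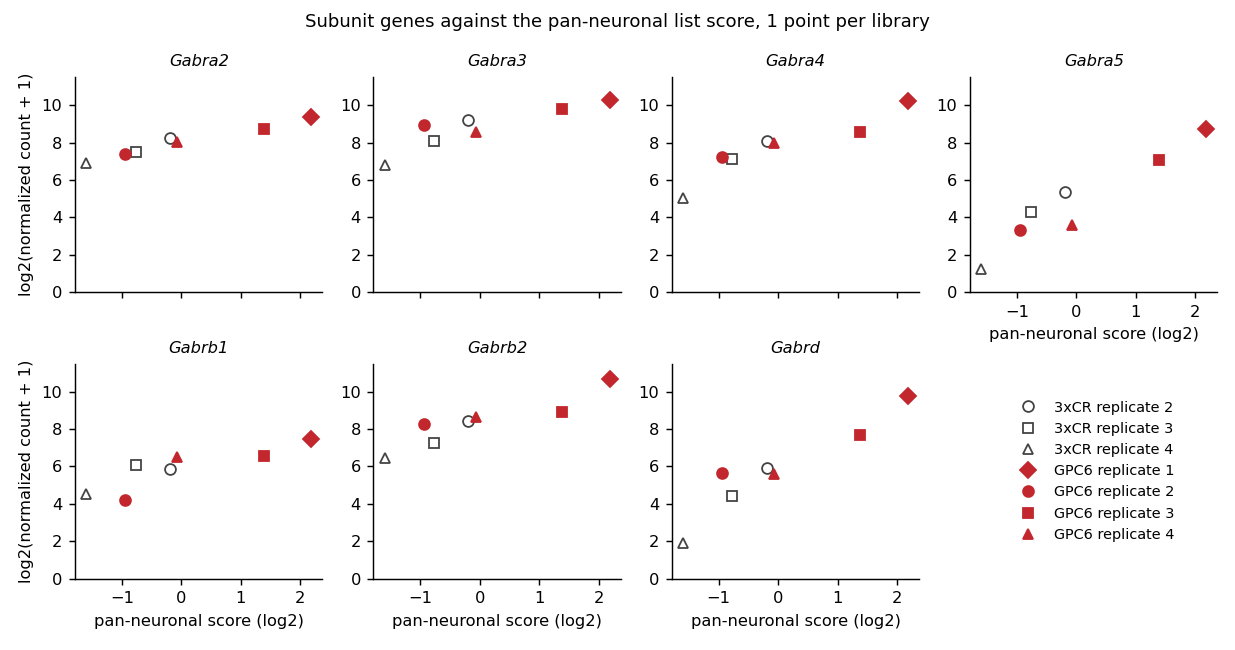
log2(normalized count + 1) of each subunit gene against the pan-neuronal list score (log2 units), with 1 point per library (open black for 3xCR, filled red for GPC6, shape for the replicate number). GPC6 replicates 1 and 3 hold the highest scores, 2.18 and 1.38, and the highest values of all 7 genes.

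With the pan-neuronal score as a covariate in the fit across all genes, the difference between the groups turned in sign for 3 members and was smaller in the rest. The log2 fold changes were -0.15 (Gabra2), -0.96 (Gabra5) and -0.63 (Gabrb1), and 0.39 (Gabra3), 0.19 (Gabra4), 0.60 (Gabrb2) and 0.78 (Gabrd), each with a limma adjusted p of 1.000 and standard errors of 0.27 to 0.72.

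The interneuron list (Gad1, Gad2, Slc32a1 and 5 others), whose 8 genes were also higher on average in GPC6 tumors and of which Vip was at 0 in at least 1 library, gave r of 0.88 to 0.99 with the members (adjusted exact permutation p of 0.00694 to 0.0262, n = 7) and rho of 0.82 to 0.96 (0.0194 to 0.0503). Without 3xCR replicate 4 and GPC6 replicate 1 these r were 0.71 to 0.96. Oligodendrocyte precursors, a glial type that can also express GABA-A receptors, gave r of -0.52 to 0.028 (adjusted exact permutation p of 0.303 to 0.952, n = 7) and rho of -0.64 to -0.18 (0.185 to 0.713). For the astrocyte list r was 0.64 to 0.88 (adjusted exact permutation p of 0.0188 to 0.167, n = 7), with rho of 0.57 to 0.93 (0.0210 to 0.255). With the 2 libraries farthest from the median left out, r ranged from 0.45 to 0.62 for the precursors and from 0.41 to 0.89 for the astrocytes, so the first of these changed its sign for 6 of the 7 members.

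Regions of the brain differ in their subunits, and markers of several kinds of neuron were high in GPC6 replicate 1. The summed level of 7 hypothalamic genes was 1182 there and at most 65.6 in the other libraries, where Avp, Oxt, Pmch, Hcrt and Agrp were each at 0 in at least 1 library. The 9 striatal genes summed to 21919 in GPC6 replicate 1, to 699 to 5942 in the other GPC6 libraries and to 768 to 2753 in the 3xCR libraries. Sums of 9 genes of cortical and hippocampal excitatory neurons were 254 to 1838 in the 3xCR libraries against 12203, 608, 12265 and 2236 in the GPC6 libraries. Some lists of other cells were high in GPC6 replicate 1 too. The choroid plexus and ependyma genes summed to 12963 there and to at most 3905 elsewhere, and the astrocyte genes to 64076 and at most 60902. The oligodendrocyte score was highest there (1.36), although the sum of that list was higher in GPC6 replicate 2. The oligodendrocyte precursor genes had their lowest sum in GPC6 replicate 1 (17299). The microglia list went the other way as well. Its 6 genes summed to 11736 to 15913 in the 3xCR and to 7721 to 10779 in the GPC6 libraries, with the highest sum in 3xCR replicate 4 and the lowest in GPC6 replicate 1, and 0 of the 6 were higher in GPC6 (3 lower with a limma p under 0.05 before adjustment, 0 after it). The part of these cells in the levels of the subunit genes was not tested.

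Levels of different genes were compared per kb of exon (normalized counts divided by the length of all exons of protein-coding transcripts in GENCODE). In the 3xCR group Gabra3 had the highest level per kb, 83.4 ± 62.8 (SD, n = 3), followed by Gabrb2 (47.3 ± 32.8), Gabra4 (35.1 ± 28.6), Gabra2 (34.5 ± 15.8), Gabrd (14.3 ± 15.02), Gabra5 (6.79 ± 6.60) and Gabrb1 (3.53 ± 1.72). In the GPC6 group the order was Gabra3 (195 ± 102, SD, n = 4), Gabrb2 (172 ± 151), Gabrd (154 ± 207), Gabra4 (117 ± 112), Gabra2 (64.8 ± 37.3), Gabra5 (48.2 ± 65.3) and Gabrb1 (6.79 ± 4.64). Neighbours in these orders differed by less than the larger of their SDs, apart from Gabra2 and Gabrd in the 3xCR group. Within libraries, Gabra3 exceeded Gabrb2 in 6 of 7 and Gabrb2 exceeded Gabra4 and Gabra2 in 7 of 7. Gabrd exceeded Gabra4 and Gabra2 in 2 of 7 libraries each, and its place in the GPC6 group came from replicates 1 and 3, with 459 and 108 per kb against 25.7 and 24.6 in replicates 2 and 4. The low level of Gabrb1 depends on its annotated exons of 13.8 kb, most of which lie in 1 transcript, and would be higher if the authors' gene model was shorter.

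Expressed as shares of the summed level per kb of the 7 genes, the make-up of the libraries differed most, by the p of the test, in Gabra2 and Gabrd. With 3 against 4 libraries the smallest p that the two-sided exact permutation test can give is 0.057, so no share could have passed 0.05. Gabra2 had 12.9%, 16.1% and 25.4% in the 3xCR libraries against 6.61%, 9.62%, 10.7% and 13.4% in the GPC6 libraries. The groups overlapped only through GPC6 replicate 4, which was above 3xCR replicate 2, and the means were 18.2% ± 6.50 (SD, n = 3) and 10.1% ± 2.81 (SD, n = 4), with a two-sided exact permutation p of 0.114. Gabrd had 7.68%, 5.55% and 1.76% in the 3xCR libraries against 26.6%, 8.62%, 16.0% and 7.37% in the GPC6 libraries (means 4.997% ± 2.999 and 14.7% ± 8.83, exact permutation p = 0.114). The overlap was again due to GPC6 replicate 4, here below 3xCR replicate 2. Gabra3 had the largest share in 6 of the 7 libraries, all but GPC6 replicate 1, where Gabrd and Gabrb2 were above it, and ranged from 18.6% to 43.4%. Gabrb2 ranged from 17.6% to 29.0%, Gabra4 from 9.29% to 17.7%, Gabra5 from 0.57% to 8.21% and Gabrb1 from 0.43% to 2.56%, with exact permutation p of 0.171 to 0.743 for these 4 genes and 0.457 for Gabra3.

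**Figure D4:**
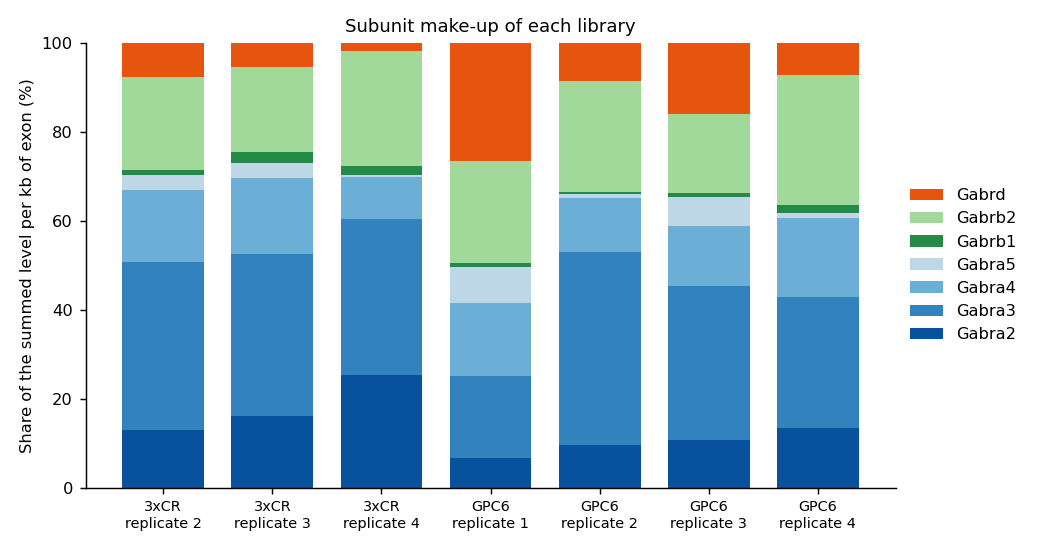
Share of each subunit gene in the summed level per kb of exon of the 7 genes (%), 1 bar per library. The share of Gabrd is 26.6% in GPC6 replicate 1 and 16.0% in GPC6 replicate 3 and at most 8.62% elsewhere, and that of Gabra2 is largest in 3xCR replicate 4 (25.4%).

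Within the sum of Gabra2, Gabra3, Gabra4 and Gabra5 alone, Gabra3 made up 51.2% ± 2.32 (SD, n = 3) of the level per kb in 3xCR and 51.0% ± 11.8 (SD, n = 4) in GPC6 tumors. Other alpha genes of the family were not part of this sum, so these are not shares of all alpha subunit RNA. Gabra2 made up 25.6% ± 9.38 and 16.5% ± 3.71, Gabra4 19.9% ± 5.78 and 25.1% ± 6.80, and Gabra5 3.37% ± 2.23 and 7.49% ± 7.21. The share of Gabra5 amounted to 16.5%, 1.52%, 10.1% and 1.84% in the GPC6 libraries, so 2 GPC6 libraries were above the 3xCR values of 0.81% to 4.84% and 2 within them.

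Of 7 further subunit genes, 4 reached a mean of 10 and entered the test, and none passed it before or after adjustment. Gabrg1, a gamma subunit of the same cluster as Gabra2, had 412, 225 and 88.4 normalized counts in the 3xCR libraries against 522, 380.4, 371 and 325 in the GPC6 libraries (log2 fold change 0.96 ± 0.49, SE, limma adjusted p = 0.730). Its GPC6 libraries varied less than those of any member (coefficient of variation 21.3%, against 52.0% to 136% for the members). Gabrg3 and Gabrq averaged 4.62 and 7.83 in 3xCR against 16.7 and 33.1 in GPC6 tumors. They thus entered the test only through the GPC6 group, and a higher value there is partly fixed by the filter. Their log2 fold changes were 1.24 and 1.53 (limma adjusted p of 0.735 and 0.730). Gabrg3 had its lowest value of all libraries in GPC6 replicate 4 (2.06, from 2 reads). Gabrr2, a rho subunit best known from the retina, had no steady direction, with a log2 fold change of -0.27 by limma (adjusted p = 0.950) and of 0.60 by edgeR and 0.62 by DESeq2, and means of 13.9 in 3xCR and 21.1 in GPC6 tumors. Gabre averaged 4.88 in 3xCR and 8.55 in GPC6 tumors and Gabrr1 11.8 and 3.10, the former through 31.8 in 3xCR replicate 4. Gabra6, a subunit of cerebellar granule cells, had 2 reads in 3xCR replicate 4 and was at 0 in the other 6 libraries.

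Proteins that hold, carry and complement the receptors were looked at as lists, whose counts stand beside 48.3% of all genes tested being higher in GPC6 and 2.74% being higher with an unadjusted p under 0.05. Of 13 genes of the inhibitory postsynapse that were tested, 10 were higher on average in GPC6 tumors, with a median log2 fold change of 0.45. By limma 0 passed after adjustment and 1 had an unadjusted p under 0.05 (Slitrk3, an adhesion protein of inhibitory synapses, log2 fold change 1.36, limma unadjusted p = 0.0312, adjusted p = 0.730). Iqsec3, which binds the scaffold gephyrin, had the largest log2 fold change (1.84) and Igsf9b the smallest (-0.21), while Dag1, dystroglycan, had the highest level and a log2 fold change of -0.030. For 12 trafficking genes the median was 0.43, with 9 higher, 0 passing after adjustment and 1 with an unadjusted p under 0.05. Nsf, the ATPase that takes SNARE complexes apart, had the largest (1.69, limma unadjusted p = 0.0488, adjusted p = 0.730), Gabarap, the GABA-A receptor-associated protein, the smallest (-0.43), and Gabarapl1 the highest level (log2 fold change 0.61). The 5 genes of the GABA-B receptor, the G protein-coupled receptor for GABA, had a median of 1.503, with 4 higher, 0 passing after adjustment and 1 with an unadjusted p under 0.05. Its subunits Gabbr1 and Gabbr2 had log2 fold changes of 1.45 and 2.84 (limma adjusted p = 0.730 for both, unadjusted p = 0.0821 and 0.0175), and Kctd12, an auxiliary subunit, -0.36. Gabbr2 had 287, 113 and 27.6 normalized counts in the 3xCR libraries against 2034, 211, 1117 and 503 in the GPC6 libraries. As for the members, GPC6 replicates 1 and 3 were the highest, 3xCR replicate 4 was the lowest and GPC6 replicate 2 was below 3xCR replicate 2.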

How the data were processed

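Bulk RNA-Seq of 3 tumors of the 3xCR and 4 of the GPC6 group was used, grouped by the sample titles. According to the submitters' processing notes and methods, reads were aligned to mm10 with STAR 2.5.0a, counted with Rsamtools and GenomicFeatures and normalized with DESeq2 1.20.0. The deposited values are normalized counts (a signal of reads divided by 1 size factor per library), without correction for gene length. How reads that fit several genes were counted is not given in the sources used here. Of 19282 entries, 25 whose names had become dates (0.254% to 0.361% of reads) were left out. All values (100.0%) were whole multiples of the value of 1 read within a tolerance of 0.01 reads, which gave back the reads. No column of another sample was present.

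Groups were compared with limma 3.58.1 in R 4.3.3 (trended variance) on log2(normalized count + 1) over genes with a mean of at least 10. On the recovered reads edgeR 4.0.16, DESeq2 1.42.0 and limma voom were run as alternatives, the second being the tool named by the authors. Also tried were a pseudocount of 0.5 or 5, genes without a filter or with a mean of at least 50, scaling to equal totals or upper quartiles, variance without a trend, library weights, each library left out, the replicate number as a block and the pan-neuronal score as a covariate. The fits were tested on simulated counts in which all genes had the same dispersion, which does not measure their power in these libraries. Single values were compared with exact permutation tests (scipy 1.17.1), and p-values measure the spread between these tumors. The subunit genes, the lists, and the tests were chosen with earlier results of these data known. Named were the 7 members, further subunit genes (3 are not reported here), the gene of highest mean and of largest and smallest log2 fold change of each pathway list with those at an unadjusted p under 0.05, the 8 genes most like the members, and Gpc6. Promoter windows came from RefSeq, lengths and positions from GENCODE M21.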

Additional observations from a re-analysis of the deposited data

Results flagged for a closer look

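Among the 4 GPC6 libraries, 36 quantities (14 subunit genes, 7 shares and 15 list scores) were searched for a library that stood apart by Dixon's 95% critical value for its gap to the nearest other library. Chance gives such a library in about 1 in 20 groups, or about 1.8 of these quantities. A single value was found. The proliferation score was -3.32 in GPC6 replicate 1. The rest of its group lay at 0.39 to 1.16, and the 3xCR libraries at -0.13 to 1.11. GPC6 replicate 1 is also the library with the highest level of all 7 subunit genes, and what ties these values was not tested. No subunit gene and no share met the criterion.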

How the results depend on the processing

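No member passed an adjusted p under 0.05 in 19 of the 20 alternatives, and the 7 log2 fold changes kept their sign in all but the fit with the pan-neuronal score as a covariate, where Gabra2 was -0.15, Gabra5 -0.96 and Gabrb1 -0.63 and the median of the 7 was 0.19. The genes at an adjusted p under 0.05 numbered 0 in all fits except DESeq2 (9) and library weights (1962). With library weights 4 of the 7 members and 12 of 34 genes of the other subunits, the inhibitory postsynapse, trafficking and the GABA-B receptor passed. Beside these stand 13.3% of all genes tested in either direction, and 9.36% higher in GPC6. An unadjusted p under 0.05 was given to 1793 genes with DESeq2, 5105 with library weights, 325 with the covariate, and 119 (without 3xCR replicate 4) to 1401 (without GPC6 replicate 2) with 1 library left out, against 689. The cause was not tested for any of these. DESeq2 gave no adjusted p to Gabra5, Gabrb1 and Gabrd. Whether the replicate numbers shared by the groups pair the samples is not stated in the titles. Deviations from the group means correlated by -0.19, 0.12 and 0.30 for replicates 2, 3 and 4. Of the 3xCR libraries, replicate 2 correlated best with GPC6 replicate 1 (0.50) and replicate 3 with GPC6 replicate 4 (0.18). Replicate 4 correlated best with GPC6 replicate 4 (0.30), followed by GPC6 replicate 2 (0.27). With so few libraries these values cannot decide whether there was a pairing. With the replicate number as a block, 0 genes passed an adjusted p under 0.05 and 678 an unadjusted p under 0.05, and the log2 fold changes of the members were 0.27 to 2.23, the values found without GPC6 replicate 1, which has no partner and so adds nothing to the blocked difference. Few reads limit Gabra5 and Gabrd in 3xCR replicate 4.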
